A study of Homo sapiens with 6 samples.

Results

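The 9 genes described here encode the oestrogen and progesterone receptors and the transcription factors that breast epithelium uses to set luminal and basal identity: ESR1, PGR, GATA3, FOXA1, FOXC1, ELF5, SOX10, TFAP2A and SPDEF. They were taken by symbol from a table of 26485 genes, with earlier results of these data known, and each had 1 row. RNA was measured in 6 libraries of HCC38, an established human breast cancer line described in the labels as basal-like and triple negative. The 3 controls were a mock library, given transfection reagent alone according to its label although the design text calls it non-transfected, and 1 library each for SCR#2 and SCR#3, siRNAs without a target. In the 3 silenced libraries a different siRNA was used against CIP2A, a gene for an inhibitor of the phosphatase PP2A, and these are called siCIP2A#1, siCIP2A#2 and siCIP2A#3. Oligofectamine carried the siRNAs. The labels do not say whether libraries came from separate cultures, so a p-value measures only the spread between these libraries, which may be technical. In bulk RNA fewer cells with a transcript and less transcript per cell cannot be told apart.

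The oestrogen receptor gene ESR1 and the progesterone receptor gene PGR, itself a target of the oestrogen receptor, encode nuclear receptors that switch genes on when bound by hormone. In hormone-sensing luminal cells FOXA1 opens chromatin for the oestrogen receptor, GATA3 acts with it, and SPDEF is an ETS-type factor of luminal and secretory epithelium. ELF5 is the ETS-type factor of alveolar and luminal progenitor cells, FOXC1 and SOX10 are factors associated with basal-like tumours, and TFAP2A encodes AP-2 alpha, a factor of ectodermal epithelia. Triple negative tumours are those without oestrogen receptor, progesterone receptor and amplified HER2.

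Of the 9 genes, 4 had at least 3 counts in every library (TFAP2A, FOXC1, FOXA1 and GATA3), and 5 fell under 3 counts in at least 1 library. PGR, ELF5 and SOX10 were under 3 counts in all 6 libraries, SPDEF in 5 and ESR1 in 3. A count of 3 was taken as the floor and corresponded to 0.165 to 0.214 CPM (the count scaled to the library total), since total counts ran from 13995187 to 18161451. Of all genes in the table, 38.2% were under 3 counts in all 6 libraries. CIP2A, the gene the siRNAs target, stood at 97.0, 99.7 and 103 CPM in the mock, SCR#2 and SCR#3, and at 16.6, 45.6 and 19.3 CPM in siCIP2A#1, siCIP2A#2 and siCIP2A#3. Against the controls CIP2A fell with each siRNA (edgeR adjusted p = 2.41e-04, 0.0165 and 4.68e-04), whereas for the 3 siRNAs as 1 group, which differ among themselves, its log2 difference of -1.90 had an edgeR adjusted p of 0.708.

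The sequence before the start is shown for the 4 members with a single start among the RefSeq windows used (GRCh38.p14), because they differ in their number of CpGs. Each line gives the 250 bases before the start, 5′ to 3′ on the gene's strand, with every CpG dinucleotide in capitals. FOXC1 lies on the plus strand (chr6:1609665-1609914), and FOXA1 (chr14:37595250-37595499), SPDEF (chr6:34556330-34556579) and ELF5 (chr11:34511725-34511974) lie on the minus strand. The ELF5 window lies inside the annotated span of the gene, which begins upstream of this start.
FOXC1: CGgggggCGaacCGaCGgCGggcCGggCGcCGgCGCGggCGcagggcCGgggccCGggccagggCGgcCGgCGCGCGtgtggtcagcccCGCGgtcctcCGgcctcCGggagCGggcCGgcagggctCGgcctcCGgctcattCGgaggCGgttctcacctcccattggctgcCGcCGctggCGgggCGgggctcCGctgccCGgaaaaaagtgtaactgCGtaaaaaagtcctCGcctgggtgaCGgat
FOXA1: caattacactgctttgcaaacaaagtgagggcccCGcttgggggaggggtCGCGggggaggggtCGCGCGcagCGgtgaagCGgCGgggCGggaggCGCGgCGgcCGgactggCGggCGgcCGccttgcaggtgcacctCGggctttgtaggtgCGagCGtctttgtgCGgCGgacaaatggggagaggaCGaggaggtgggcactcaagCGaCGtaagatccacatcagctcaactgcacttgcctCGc
SPDEF: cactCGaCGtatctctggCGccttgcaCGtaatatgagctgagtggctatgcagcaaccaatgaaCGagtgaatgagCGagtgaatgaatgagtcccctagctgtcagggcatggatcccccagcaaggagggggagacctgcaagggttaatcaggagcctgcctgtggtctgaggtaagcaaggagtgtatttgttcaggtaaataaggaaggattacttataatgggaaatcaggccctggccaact
ELF5: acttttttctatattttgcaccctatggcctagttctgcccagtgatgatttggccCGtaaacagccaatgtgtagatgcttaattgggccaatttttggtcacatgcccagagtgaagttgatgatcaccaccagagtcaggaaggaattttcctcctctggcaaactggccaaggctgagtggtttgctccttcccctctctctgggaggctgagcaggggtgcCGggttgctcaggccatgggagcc

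FOXC1 had 37 CpGs in this window and FOXA1 had 26, against 6 for SPDEF and 2 for ELF5. Over the 35116 windows of all genes the median was 11, and 96.0% of windows had fewer CpGs than FOXC1, 80.4% fewer than FOXA1, 38.1% fewer than SPDEF and 14.7% fewer than ELF5. Of these windows, those above the median belong to genes with counts in every library and those below it to genes near 0, but the order did not extend to all members. TFAP2A, the member with the highest level, had 13 and 15 CpGs at its 2 starts, while PGR, with 2 counts in all, had 5 to 12 at its 3 starts. GATA3 ranged from 4 to 30 over 6 starts and ESR1 from 2 to 11 over 6. SOX10 had no entry.

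The same windows were searched on both strands for short motifs of the members' own factors. The AP-2 motif GCCNNNGGC, present in 19.8% of all windows, occurred 2 times before FOXC1 and not before FOXA1, SPDEF or ELF5. It also occurred 1 time at 3 of the 6 GATA3 starts and at 2 of the 3 PGR starts, and those PGR windows overlap. The forkhead motif GTAAACA, present in 2.98% of windows, occurred 1 time before ELF5 and before no other member that had a window. The GATA motif AGATAA and the full palindromic oestrogen response element, present in 9.17% and 0.0399% of windows, occurred before none of the 8 members with a window. A match says only that these letters are there.

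**Figure D1:**
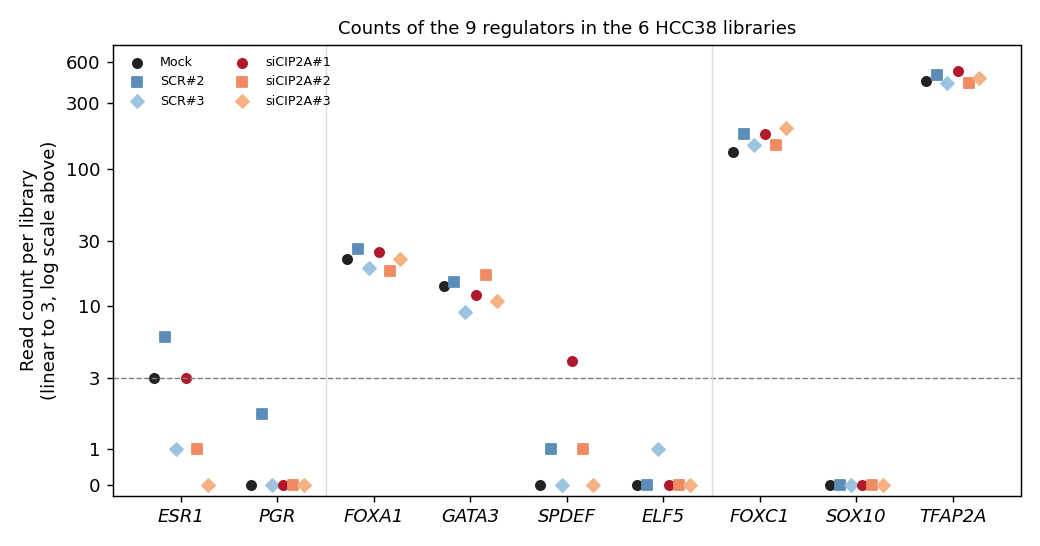
Read counts of the 9 regulators (vertical axis, linear to 3 and logarithmic above) in each of the 6 libraries, with 1 marker per library and a dashed line at 3 counts. TFAP2A lies between 419 and 518 counts, FOXC1 between 133 and 197, FOXA1 between 18 and 26 and GATA3 between 9 and 17, and SOX10 is at 0 in all 6.

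Both hormone receptor genes were at the edge of detection. ESR1, on chromosome 6 from 151656672 to 152129619, had 3, 6 and 1 counts in the mock, SCR#2 and SCR#3 libraries, and 3, 1 and 0 counts in siCIP2A#1, siCIP2A#2 and siCIP2A#3. The groups overlapped, and the 14 counts in all correspond to 0.145 CPM (exact 95% Poisson interval 0.0793 to 0.243, which covers counting error only). The gene SYNE1, which runs on the opposite strand over the end of ESR1, had 1514 to 2150 counts in these libraries, so reads crossing into ESR1 cannot be told apart from its own unless strand was used in counting, which is not given in the sources used here.

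PGR, on chromosome 11 from 101029624 to 101129813, had 2 counts with SCR#2 and 0 in each of the other 5 libraries, or 0.0207 CPM over all 6 (exact 95% Poisson interval 0.00251 to 0.0749). Neither receptor gene passed the filter on low counts. ESR1 had 10 counts in the controls and 4 with the siRNAs (exact two-sided permutation test on CPM, p = 0.20). PGR was under the floor in every library, so no fold change is given for it, and a fall of PGR was not detectable at this depth. Without the filter edgeR gave both an adjusted p of 0.993.

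The luminal factors FOXA1 and GATA3 were low but present in every library. FOXA1, on chromosome 14 from 37589552 to 37595249, had 22, 26 and 19 counts in the mock, SCR#2 and SCR#3 libraries, and 25, 18 and 22 counts in siCIP2A#1, siCIP2A#2 and siCIP2A#3. The groups overlapped, with control and silenced means of 1.46 ± 0.151 and 1.28 ± 0.111 CPM (SD, n = 3 each). GATA3, on chromosome 10 from 8045333 to 8075198, had 14, 15 and 9 counts in the mock, SCR#2 and SCR#3, and 12, 17 and 11 counts with siCIP2A#1, siCIP2A#2 and siCIP2A#3. Its lowest library was a control and its highest a silenced one, and the means were 0.829 ± 0.199 and 0.801 ± 0.253 CPM (SD, n = 3 each).

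SPDEF, on chromosome 6 from 34537802 to 34556329, had 4 counts with siCIP2A#1, 1 with SCR#2, 1 with siCIP2A#2 and 0 in the mock, SCR#3 and siCIP2A#3. Its only library above the floor was thus siCIP2A#1, by 1 count. ELF5, on chromosome 11 from 34478791 to 34513794, had 1 count with SCR#3 and 0 in the other 5 libraries. Neither passed the filter on low counts, and without it edgeR gave both an adjusted p of 0.993.

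The factors associated with basal-like tumours differed from each other. FOXC1, a gene of chromosome 6 from 1609915 to 1613897, had 133, 179 and 149 counts in the mock, SCR#2 and SCR#3 libraries, and 180, 148 and 197 counts in siCIP2A#1, siCIP2A#2 and siCIP2A#3. Relative to library size siCIP2A#3 was the highest at 11.6 CPM and the mock the lowest at 9.50 CPM, and the groups overlapped, with control and silenced means of 10.02 ± 0.483 and 10.4 ± 1.13 CPM (SD, n = 3 each). SOX10, on chromosome 22 from 37972312 to 37984555, had 0 counts in all 6 libraries, which over 96494152 counts allows up to 0.0311 CPM (3 counts of the total). POLR2F, an RNA polymerase subunit gene on the opposite strand whose annotated span contains SOX10, had 442 to 543 counts in the same libraries. Of 5 genes of melanocytes and neural crest derivatives, lineages that also use SOX10, TYR and MLANA were at 0 in all 6 libraries and S100B had 0 to 1 counts, while PMEL had 36 to 58 and MITF 2 to 22.

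TFAP2A was the most abundant member and held 69.2% of the 3954 counts of all 9 genes. It lies on chromosome 6 from 10396677 to 10419659 and had 435, 480 and 422 counts in the mock, SCR#2 and SCR#3 libraries, and 518, 419 and 461 counts in siCIP2A#1, siCIP2A#2 and siCIP2A#3. The mock was the highest library at 31.1 CPM and siCIP2A#2 the lowest at 26.9 CPM, with control and silenced means of 29.2 ± 1.61 and 27.6 ± 0.839 CPM (SD, n = 3 each). On this scale the groups overlapped, since siCIP2A#1 at 28.5 CPM lay above SCR#2 at 28.0 CPM. The antisense gene TFAP2A-AS1, inside its span, had 23 to 33 counts, and GATA3-AS1, inside the span of GATA3, had 0 to 1.

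Levels were compared between genes as CPM per kilobase of the longest GENCODE 29 transcript. The order was TFAP2A (7.42 ± 0.385), FOXC1 (2.60 ± 0.203), FOXA1 (0.478 ± 0.0541) and GATA3 (0.261 ± 0.0654), each as mean ± SD over 6 libraries and each with a range that did not overlap the next. TFAP2A stood 2.86-fold above FOXC1, FOXC1 5.43-fold above FOXA1 (4.41 to 6.53 in single libraries), and FOXA1 1.83-fold above GATA3 (1.16 to 2.30). The 5 genes below them, SPDEF, ESR1, ELF5, PGR and SOX10, had ranges that overlapped from 1 to the next and could not be ordered. Of the 24141 genes with a length, 71.6% lay below TFAP2A, 60.03% below FOXC1, 49.3% below FOXA1 and 45.9% below GATA3. These shares include genes without any counts, and 27.7% of all genes in the table were at 0 in all 6 libraries.

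Each member was then set beside its nearest relatives, since a family can be represented by another gene in the same cells. Among the steroid receptors, the glucocorticoid receptor gene NR3C1 stood at 16.4 CPM per kilobase and the mineralocorticoid receptor gene NR3C2 at 0.879. The second oestrogen receptor gene, ESR2, had 4 to 9 counts. NR3C1 was thus above NR3C2, ESR2, ESR1 and PGR in each of the 6 libraries.

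Among the GATA factors GATA6 was the highest at 4.34 CPM per kilobase, followed by GATA2 at 1.55 and GATA3 at 0.261. GATA6 exceeded GATA3 by 16.6-fold on this scale (13.3 to 22.5 in single libraries) and GATA2 exceeded it by 5.94-fold (4.58 to 7.21). TFAP2A was the most abundant AP-2 gene: TFAP2C, the AP-2 gene best known from luminal breast cancer, had 1 to 10 counts, TFAP2E 1 to 13, TFAP2B 1 to 6 and TFAP2D 0. SOX9, which belongs to the same SOXE group as SOX10, stood at 30.6 CPM per kilobase, above every member described here, while SOX8 had 0 to 9 counts. Of the other ETS-type factors of epithelia, EHF had 1 to 16 counts and ELF3 0 to 15, and each was highest with siCIP2A#1. Neither passed the filter on low counts, so neither was tested, and each fell under 3 counts in 1 library. FOXA3 had 5 to 14 counts, FOXA2 1 to 2 and FOXC2 0 to 1.

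**Figure D2:**
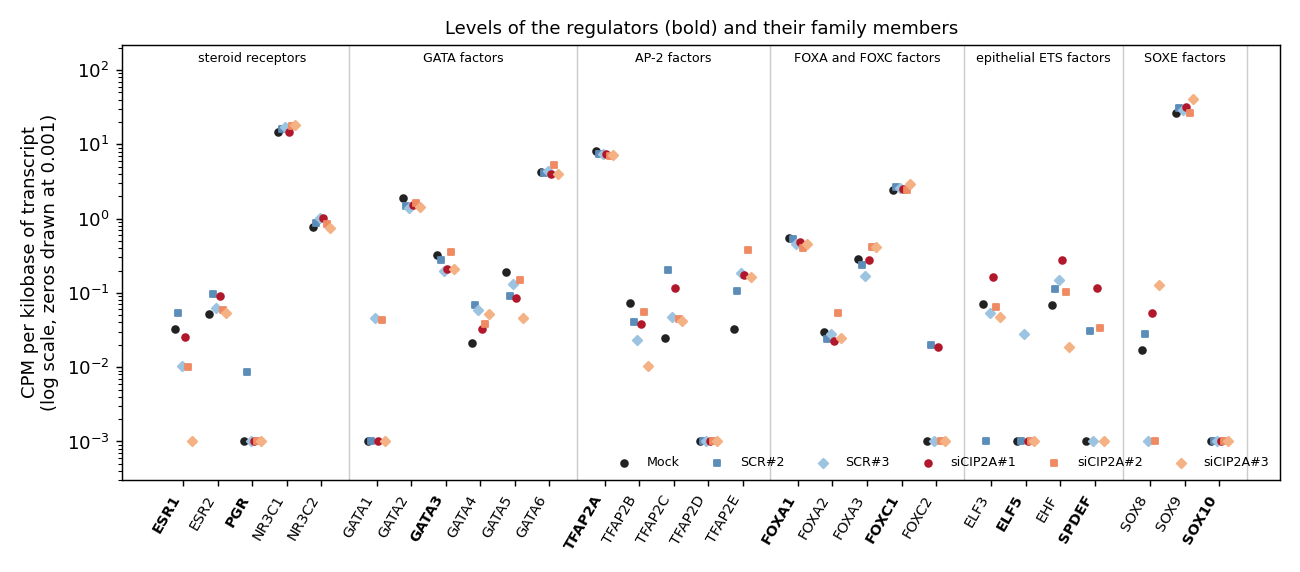
CPM per kilobase of transcript (vertical axis, log scale, zeros drawn at 0.001) for the 9 regulators (bold) and other genes of their families, 1 marker per library. NR3C1, GATA6, TFAP2A, FOXC1 and SOX9 lead their families, and ESR1, PGR, ELF5, SPDEF and SOX10 lie near the bottom of theirs.

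The label was checked against other genes of breast epithelium. The simple-epithelium keratin genes KRT18 (252 CPM per kilobase) and KRT8 (120) and the mesenchymal filament gene VIM (1728) were abundant, and EGFR and ERBB2 had 1099 to 1412 and 799 to 1152 counts. KRT19, a further simple-epithelium keratin gene, was low, with 3 to 11 counts. The basal keratin genes KRT5, KRT14, KRT17 and KRT6B were under 3 counts in every library, EPCAM had 6 to 11 counts and the E-cadherin gene CDH1 2 to 18. Thus ESR1 and PGR were near 0 in a line labelled triple negative, and these 4 basal keratin genes were near 0 in a line labelled basal-like. Of the markers of other cells, PTPRC (leukocytes) was at 0, and the 5 leukocyte genes summed to 0.175 to 0.475 CPM in the controls and 0.295 to 0.450 CPM with the siRNAs. Of the 3 endothelial genes CDH5 was at 0, but PECAM1 had 44 to 115 counts and VWF 7 to 20, and the list summed to 3.64 to 6.02 CPM in the controls and 3.60 to 7.43 CPM with the siRNAs. The 5 fibroblast genes summed to 5.97 to 6.78 and 5.67 to 16.7 CPM, the highest with siCIP2A#1, where COL1A1 rose. Their part in the members' values was not tested.

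The study's main comparison asks which transcripts differ between the CIP2A siRNAs and the controls. For the 4 testable members no difference beyond the spread between libraries was found: the edgeR quasi-likelihood test, adjusted by Benjamini-Hochberg over 13562 genes, called 0 of 4 (adjusted p = 0.999 each), and 0 of 4 had an unadjusted p under 0.05. It called 0% of all genes tested, with 2.72% at an unadjusted p under 0.05, and DESeq2 called 3 genes, none of them a member. After scaling by TMM the groups did not overlap for 1 of the 4 members, TFAP2A, which lay lower with the siRNAs, beside 7.64% of genes tested (3.26% higher and 4.38% lower). TFAP2A overlapped on CPM by the library total, so this separation depends on the scaling. The other 5 members did not pass the filter on low counts.

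TFAP2A differed by -0.10 on the log2 scale (95% interval -0.34 to 0.13) and FOXC1 by 0.03 (-0.28 to 0.34). FOXA1 differed by -0.21 (95% interval -0.80 to 0.39) and GATA3 by -0.08 (-0.90 to 0.74), with wider intervals at lower counts. For the 3 siRNAs as 1 group, all 4 intervals leave out a change of 1 on the log2 scale in either direction. Such a change is a doubling or halving. This limit does not hold for each siRNA alone. The 95% interval of GATA3 then included a halving with siCIP2A#1 and siCIP2A#3 and a doubling with siCIP2A#2. That of FOXA1 included a halving with siCIP2A#2. Exact two-sided permutation tests on CPM gave p = 0.20 for TFAP2A, 0.30 for FOXA1, 0.80 for FOXC1 and 1.0 for GATA3, where 3 against 3 libraries cannot go below 0.10. GATA3 stood at 0.074 without the mock, 0.054 without siCIP2A#1, -0.36 without siCIP2A#2 and 0.042 without siCIP2A#3, and FOXC1 stood at -0.065 without siCIP2A#3, so the direction of both changed with the libraries used. TFAP2A stood at -0.048 without the mock.

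**Figure D3:**
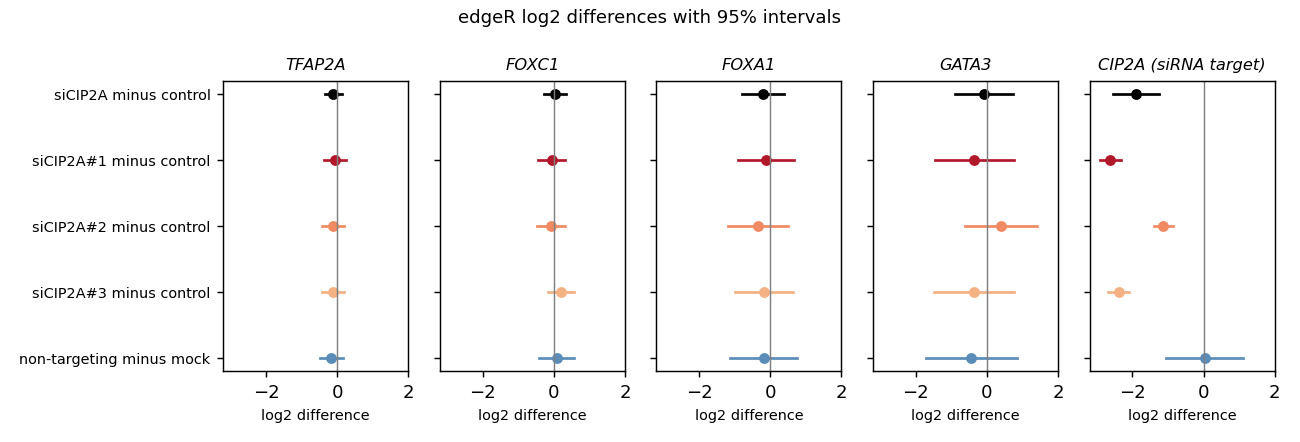
Log2 differences (horizontal axis, points) with 95% intervals (lines) from edgeR for the 4 testable regulators and for CIP2A in 5 comparisons. The intervals of TFAP2A, FOXC1, FOXA1 and GATA3 include 0 in all 5, and those of CIP2A lie below 0 in the 4 that involve a CIP2A siRNA.

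Each siRNA was also compared with the 3 controls, in a fit where every siRNA is a single library assumed to vary like the controls. TFAP2A stood at -0.07 with siCIP2A#1, -0.12 with siCIP2A#2 and -0.12 with siCIP2A#3 (log2). FOXC1 stood at -0.05, -0.08 and 0.20, FOXA1 at -0.12, -0.34 and -0.18, and GATA3 at -0.36, 0.39 and -0.36, in the same order. These comparisons share their controls. With edgeR 0 of 4 members were called with any siRNA and 0 had an unadjusted p under 0.05, beside 0.118% of genes called with siCIP2A#1 (0.0590% higher and 0.0590% lower), 0.0737% with siCIP2A#2 (0.0516% and 0.0221%) and 0.00737% with siCIP2A#3 (0% and 0.00737%). At an unadjusted p under 0.05 these shares were 9.95%, 11.6% and 8.22%. DESeq2 also called 0 of 4 with each siRNA.

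The siRNAs did not differ from each other in these genes beyond the spread either. Between siCIP2A#1 and siCIP2A#2, siCIP2A#1 and siCIP2A#3, and siCIP2A#2 and siCIP2A#3, edgeR called 0 of 4 members, with p adjusted over all genes and the 3 pairs, beside 0.0590% of genes (0.0147% higher and 0.0442% lower), 0.133% (0.111% and 0.0221%) and 0.0590% (0.0442% and 0.0147%). At an unadjusted p under 0.05 the count was 0 of 4 members, beside 12.1%, 13.6% and 15.6% of genes, and DESeq2 called 0 of 4. The widest gap was that of GATA3, 0.75 higher on the log2 scale with siCIP2A#2 than with siCIP2A#3 (95% interval -0.55 to 2.06, edgeR adjusted p = 0.600), or 17 against 11 counts. Non-targeting siRNAs against the mock likewise gave 0 of 4 calls by edgeR, beside 0% of genes, and 0 of 4 at an unadjusted p under 0.05, beside 6.31%. TFAP2A was -0.16 there (95% interval -0.49 to 0.17), FOXC1 0.09, FOXA1 -0.18 and GATA3 -0.44.

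Across all 6 libraries, silenced ones included, the spread of TFAP2A, FOXC1 and GATA3 was close to what counting error alone gives, and that of FOXA1 was below it. The coefficient of variation of CPM was 5.19% for TFAP2A, 7.81% for FOXC1, 11.3% for FOXA1 and 25.1% for GATA3, against 4.70%, 7.84%, 21.4% and 27.7% from Poisson counting at their depth. The ratio of the measured to the counting value was thus 1.10, 0.996, 0.528 and 0.904, where the median over all 13562 tested genes was 2.16, a figure that also depends on how deeply a gene is counted. Of tested genes 12.0% had a lower ratio than TFAP2A, 8.48% than FOXC1, 0.678% than FOXA1 and 6.02% than GATA3.

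Other genes of hormone response and lineage were followed as lists. Of 29 nuclear receptor genes and related progesterone-binding proteins 24 were tested and 0 passed in either direction by edgeR. At an unadjusted p under 0.05 there was 1 gene, beside 2.72% of all genes tested. The median log2 difference of these 24 was 0.09, beside -0.0011 over all tested genes, with 18 above 0 and 6 below. With siCIP2A#1, siCIP2A#2 and siCIP2A#3 alone the median was 0.099, 0.14 and 0.00059, and for non-targeting siRNAs against the mock -0.12. The gene with the smallest p was THRA, a thyroid hormone receptor gene, with control and silenced means of 18.7 ± 1.01 and 23.3 ± 2.69 CPM (SD, n = 3 each), a log2 difference of 0.30 (edgeR adjusted p = 0.999), with groups that did not overlap. In this list 2 tested genes, THRA and PPARG, lay wholly above the controls and 0 wholly below, beside 3.26% and 4.38% of all tested genes. The retinoid receptor genes RARG and RXRB stood at 0.16 and 0.14. PGRMC1, which encodes a haem-binding membrane protein first described as a progesterone receptor component, had the highest level of the list at 67.0 CPM per kilobase.

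Of the 15 receptor coregulator genes all 15 were tested and 0 passed by edgeR, with 0 at an unadjusted p under 0.05 and a median of 0.04. TRIM24 stood at -0.23, the acetyltransferase gene CREBBP at 0.18, PELP1 at 0.11 and PHB2, the most abundant at 236 CPM per kilobase, at -0.13. Of these 15 genes 0 lay wholly above the controls and 2, TRIM24 and PHB2, wholly below, beside 3.26% and 4.38% of all tested genes. Of 25 luminal and oestrogen response genes 14 were tested and 0 passed by edgeR, with a median of 0.02. At an unadjusted p under 0.05 there was 1, beside 2.72% of all genes tested. A further 8 were under 3 counts in every library, among them TFF1 and TFF3, trefoil peptide genes induced by oestrogen, and AGR2 and AGR3, protein disulfide isomerase relatives of luminal tumours. Others were abundant in these libraries: the cyclin gene CCND1 stood at 119 CPM per kilobase, the zinc transporter gene SLC39A6 at 27.3 and XBP1, a secretory pathway factor, at 21.1. STC2, which the amino acid response also induces, had control and silenced means of 7.56 ± 0.829 and 10.1 ± 1.12 CPM (SD, n = 3 each), a log2 difference of 0.41 (edgeR adjusted p = 0.999). It was the 1 tested luminal gene wholly above the controls, and 0 lay wholly below, beside 3.26% and 4.38% of all tested genes.

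Of 40 other transcription factors of the mammary lineages 26 were tested and 0 passed by edgeR, with 4 at an unadjusted p under 0.05, beside 2.72% of all genes tested, and a median of 0.05. That count was 1 without siCIP2A#1, 1 without SCR#3, 2 without SCR#2 and 2 without the mock, but 5 without siCIP2A#2 and 5 without siCIP2A#3. The 4 genes were KLF5, an epithelial Krüppel-like factor, at -0.40, TBX2 at 0.53, KLF4 at 0.33 and the Notch target HES1 at 0.47 (log2), each with groups that did not overlap and edgeR adjusted p = 0.999. KLF5 had control and silenced means of 11.4 ± 0.592 and 8.73 ± 1.25 CPM, and TBX2 of 3.57 ± 0.618 and 5.22 ± 0.464 CPM (SD, n = 3 each). In this list 4 tested genes lay wholly above the controls and 1 wholly below, beside 3.26% and 4.38% of all tested genes. The 16 basal and triple negative identity genes gave 8 tested and 0 passed by edgeR, with 0 at an unadjusted p under 0.05 and a median of 0.02. Of these 8 genes 0 lay wholly above the controls and 1, VIM, wholly below, beside 3.26% and 4.38% of all tested genes. ERBB2, the HER2 gene, stood at 0.23 and KRT8 at 0.19. The siRNAs differed in direction here, with a list median of 0.16, 0.065 and -0.28 for siCIP2A#1, siCIP2A#2 and siCIP2A#3 alone. KRT8 was highest with siCIP2A#1 (446 CPM) and lowest with siCIP2A#3 (253 CPM).

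**Figure D4:**
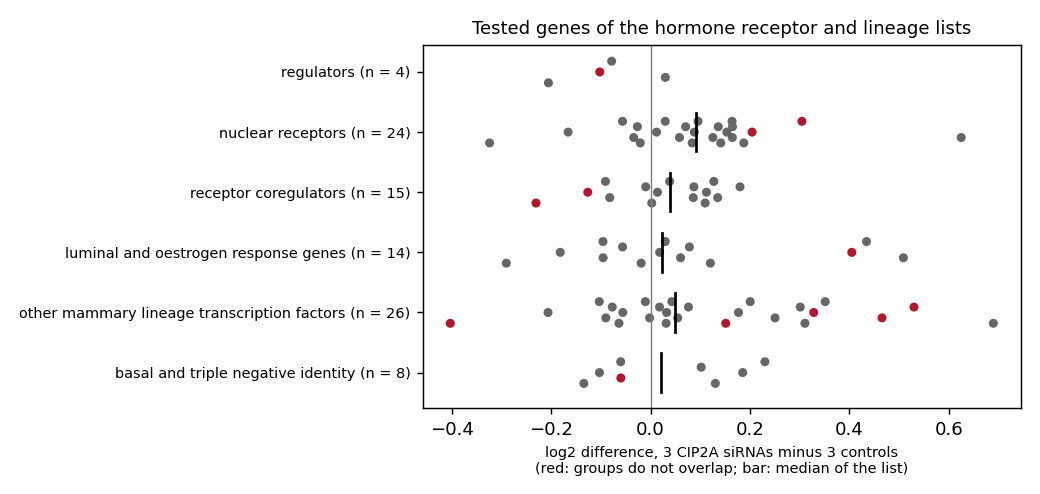
Log2 difference between the 3 CIP2A siRNAs and the 3 controls (horizontal axis) for each tested gene of the regulators and of 5 lists, with a bar at the median of each list and genes whose groups do not overlap in red (log2 values scaled by TMM). The 4 regulators lie between -0.21 and 0.03, and TFAP2A at -0.10 is the red one.

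On the genome 4 of the 9 members lie on chromosome 6 (ESR1, FOXC1, TFAP2A and SPDEF). Some neighbours had counts like the member's and others did not. GMDS, beside FOXC1, had 156 to 282 counts and FOXCUT, on its other side, 0. TRPC6, beside PGR, had 0 to 2 counts and ARHGAP42, on its other side, 24 to 54. CAT, beside ELF5, had 475 to 835 counts, C6orf106, beside SPDEF, 3748 to 4985, and TAF3, beside GATA3, 215 to 313. The genes whose log2 CPM followed each tested member most closely over the 6 libraries were RBM3, HTRA2 and DLL3 for FOXA1 (Pearson r = 0.99, 0.98 and 0.98), and BRIX1, HTR7 and ZNF121 for FOXC1 (0.99 each). They were CC2D1B, ALKBH3 and MAPRE3 for GATA3 (0.99, 0.99 and 0.99) and ZBTB46-AS1, MRPL27 and ANO7 for TFAP2A (0.98, 0.98 and 0.97). With 6 libraries, which the genes share, and 12096 or more genes searched such values are a description: 10 genes exceeded 0.95 for FOXA1, 58 for FOXC1, 16 for GATA3 and 14 for TFAP2A. Among the members, FOXA1 and TFAP2A had r = 0.77 and GATA3 and FOXC1 r = -0.50.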

How the data were processed

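Poly(A) RNA of 6 HCC38 libraries was sequenced from stranded TruSeq mRNA libraries, per the labels' protocols. The tools Subread 1.5.1, STAR 2.5.4b and bcl2fastq 2.17 and the build hg38 are named per the submitters' processing notes. Which annotation and strand setting were used, and how multi-mapping reads were handled, is not given in the sources used here. The values deposited by the authors are raw counts of reads for each gene, per the file headers 1 column for every library.

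CPM values were computed from the total count of each library. Genes were filtered with filterByExpr (minimum count 10), scaled with TMM and tested with edgeR 4.0.16 (robust glmQLFit and glmQLFTest, R 4.3.3) at a Benjamini-Hochberg adjusted p under 0.05 over 13562 genes. Fits had 2, 3 (mock apart) or 4 (each siRNA apart) levels. Overlap between groups was read on log2 CPM scaled by TMM for tested genes. Standard errors came from the F statistic. The edgeR step was tested on simulated data. DESeq2 1.42.0 and limma 3.58.1 were alternatives. Lengths were found for 24141 of 26485 genes in GENCODE 29, and coordinates come from RefSeq (GRCh38.p14). Chi-square per degree of freedom between libraries of 1 group was 3.10 or more, so none was a copy.

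The members and gene lists were chosen with earlier results of these data known. Named genes are the members, their neighbours and antisense genes, up to 4 genes of each list with the smallest p and up to 2 with the highest level, and the 3 genes most correlated with each tested member. The families, other list genes named for their level or for having few counts, and the promoter motifs were chosen after values were seen. Alternatives were RLE factors, DESeq2, limma-voom, no filter, a stricter filter (CPM of 1 or more in 3 libraries), a replicate block, a separate level for the mock, and leaving out every library in turn. The values of 1 further gene are not reported here.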

Additional observations from a re-analysis of the deposited data

How the results depend on the processing

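In every alternative run, 0 members were called in the comparisons each was run on, by edgeR, DESeq2 or limma-voom (the main comparison only). Without the filter 8 members entered (SOX10 had no counts) and 0 were called, in the main comparison beside 3 of 19137 genes. With CPM of at least 1 in 3 libraries GATA3 left the test. FOXA1 and TFAP2A kept their direction in all 13 alternatives of the main comparison, from -0.29 to -0.15 and from -0.14 to -0.048. GATA3 turned in 4 of 12, to 0.073 where the mock had its own level, to 0.074 without the mock, to 0.054 without siCIP2A#1 and to 0.042 without siCIP2A#3, and its left-out range was -0.36 to 0.074; the cause was not tested. FOXC1 turned in 1 of 13, to -0.065 without siCIP2A#3, with a left-out range of -0.065 to 0.078; the cause was not tested. With the replicate number as a block 0 members were called, with TFAP2A at -0.10 and FOXC1 at 0.026. Same-numbered libraries had correlations of deviations from the group means of -0.12, -0.13 and 0.0076, beside -0.073 to 0.16 for libraries of different number. Each number also stands for a different treatment within its group, so these values cannot decide whether the numbers pair the libraries. The 5 context lists had 0 genes called in every alternative of the main comparison. At an unadjusted p under 0.05 their counts ranged over the alternatives from 0 to 4 for the nuclear receptors (1 as reported), 0 to 2 for coregulators (0), 0 to 3 for luminal genes (1), 1 to 5 for the other transcription factors (4) and 0 to 1 for the identity genes (0). Counts over all genes moved more: 16 genes called with siCIP2A#1, 10 with siCIP2A#2 and 1 with siCIP2A#3 became 1896, 3088 and 1330 without the mock, 102, 40 and 33 without SCR#2, 85, 50 and 32 without SCR#3, 75, 61 and 29 with DESeq2 and 169, 109 and 44 without the filter, none of them a member. Between siRNAs 34 became 293 with DESeq2 and 669 without the filter. Depth limits GATA3, FOXA1 and the 5 untested members most.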
